A study of Mus musculus with 8 samples.

Results

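The expression of 36 genes of the NRF2, glutathione and antioxidant systems was examined in mouse embryonic fibroblasts (MEFs), connective tissue cells cultured from embryos. The genes were chosen by name, as a functional group, among the 49492 gene rows of an RNA-seq table, and all 36 were found. A filter on low values, a signal of at least 1 in at least 2 samples, was passed by 35 of them, the exception being Gpx3. There were 4 groups with 2 replicates each, namely WT and RA cells in normal medium and WT and RA cells under glucose starvation, which is medium without glucose and with dialyzed serum. WT cells carried Flag-tagged wild-type Pontin, an ATPase of chromatin remodelling complexes encoded by Ruvbl1, and RA cells carried Flag-tagged Pontin in which the arginines methylated by the enzyme CARM1 were replaced by alanine. All 4 groups shared the same background, Pontin f/f MEFs made by the 3T3 protocol, whose own floxed Pontin gene was removed with a virus carrying Cre. The tagged Pontin was brought in by lentivirus and kept as a stably expressing line for each form, so a difference between lines and a difference between Pontin forms cannot be told apart. The time of starvation before RNA extraction is not given in the sources used here. The labels do not say whether the replicates were separate cultures, and the study's general statement that its experiments were repeated independently is not tied to these libraries. The p-values therefore measure the spread between these samples, which may be technical.

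NRF2, encoded by Nfe2l2, is the transcription factor that drives much of the cellular defence against oxidants and electrophiles. In resting cells the adaptor KEAP1 holds NRF2 and hands it to a CUL3 ubiquitin ligase for destruction, and oxidants that modify KEAP1 let NRF2 accumulate, pair with a small MAF protein and bind the antioxidant response element (ARE) of its target genes. The defence itself rests on the tripeptide glutathione and on thioredoxin, both kept reduced with NADPH, which feed the enzymes that remove peroxides and conjugate reactive compounds. Regulation of NRF2 takes place largely on the protein, so mRNA of Nfe2l2 is not a measure of NRF2 activity.

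Promoter sequence was available for 30 of the 36 genes in a RefSeq table of windows from 250 bases before to 50 after the start (build GRCm38.p6), and Hmox1, Gclc, Gsr, Prdx6, Gsta4 and Abcc1 were not matched. The core of the ARE, TGACNNNGC on either strand, was found in 8 of the 30 genes (26.7%), against 14% of the 27025 genes with a window. These were Nfe2l2, Gclm, Txnrd1, Srxn1, Prdx1, Sod1, Gstm5 and Mgst1. The AP-1 motif TGANTCA, which overlapped the ARE core in Prdx1, was found in 4 genes, Srxn1, Prdx1, Gstm5 and Gstp1 (13.3% against 8.97%), the E-box CACGTG in 1 gene, Prdx4 (3.33% against 8.09%), and the FOXO core GTAAACA in 0 (against 4.05%). A match is a string of letters and no proof of binding. Sequence outside these windows was not searched, so a gene without a match may still hold the motif elsewhere. The 6 holders of the ARE core with the largest called change under starvation are shown. They moved in different ways: Nfe2l2 and Srxn1 rose in both cell lines, Gclm and Prdx1 fell in both, Mgst1 fell in WT and Gstm5 rose in RA. The sequences run 5′ to 3′ along the gene, in the 250 bases before the start or, for Srxn1, around the motif after the start, and capitals mark the ARE core. They lie at chr6:138140277-138140526 (+) for Mgst1, chr2:152105543-152105569 (+) for Srxn1, chr2:75704664-75704913 (-) for Nfe2l2, chr4:116685349-116685598 (+) for Prdx1, chr3:122245307-122245556 (+) for Gclm and chr3:107895604-107895853 (+) for Gstm5.
Mgst1: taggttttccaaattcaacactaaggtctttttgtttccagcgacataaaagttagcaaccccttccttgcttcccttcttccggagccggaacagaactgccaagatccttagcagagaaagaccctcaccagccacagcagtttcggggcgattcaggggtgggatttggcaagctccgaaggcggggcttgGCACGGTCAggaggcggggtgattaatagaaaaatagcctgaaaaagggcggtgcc
Srxn1: cagtgggcaGCTAGGTCAgagtgagac
Nfe2l2: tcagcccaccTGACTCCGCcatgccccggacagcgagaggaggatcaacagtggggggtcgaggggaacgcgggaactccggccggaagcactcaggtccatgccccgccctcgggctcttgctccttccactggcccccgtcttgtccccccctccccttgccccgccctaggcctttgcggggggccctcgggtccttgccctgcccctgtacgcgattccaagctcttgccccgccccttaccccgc
Prdx1: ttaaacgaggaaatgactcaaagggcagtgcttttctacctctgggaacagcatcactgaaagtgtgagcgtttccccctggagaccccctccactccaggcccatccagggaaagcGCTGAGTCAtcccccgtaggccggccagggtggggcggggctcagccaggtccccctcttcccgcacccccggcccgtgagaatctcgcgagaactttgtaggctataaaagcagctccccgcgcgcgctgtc
Gclm: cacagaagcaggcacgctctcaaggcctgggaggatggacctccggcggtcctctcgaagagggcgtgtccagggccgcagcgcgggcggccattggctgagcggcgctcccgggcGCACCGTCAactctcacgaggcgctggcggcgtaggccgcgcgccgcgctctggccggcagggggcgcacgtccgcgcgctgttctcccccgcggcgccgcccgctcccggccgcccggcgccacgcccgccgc
Gstm5: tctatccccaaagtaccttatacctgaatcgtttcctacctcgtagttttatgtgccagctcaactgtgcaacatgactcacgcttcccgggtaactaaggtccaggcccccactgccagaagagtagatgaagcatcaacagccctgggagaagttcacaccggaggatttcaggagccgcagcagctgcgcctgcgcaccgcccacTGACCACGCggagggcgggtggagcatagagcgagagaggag

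Between 43205841 and 56363034 reads were recovered per sample. Signals are CPM of a library size that the authors scaled. They are not divided by gene length, and levels are therefore compared between samples and not between genes. Ruvbl1, counted for both Pontin forms together, stood at 28.4 and 27.6 in unstarved WT, 27.9 and 28.5 in starved WT, 36.8 and 32.1 in RA in normal medium and 45.1 and 42.9 in starved RA. All 10 fibroblast markers listed were at 1 or more in every sample, and their summed signal was 11196 to 11347 in WT and 11169 to 11624 in RA in normal medium, 5719 to 5789 in starved WT and 7921 to 7927 in starved RA. In the same order of groups, the sum of 6 markers of blood cells was 20.7 to 21.0, 23.5 to 24.5, 25.1 to 25.5 and 23.5 to 23.8. It was 83.2 to 89.9, 89.5 to 101.6, 37.2 to 38.8 and 64.8 to 68.3 for 5 of epithelium, nearly all of it Krt19. It was 2.52 to 3.39, 2.02 to 3.42, 8.92 to 9.43 and 5.99 to 6.34 for 4 of endothelium. Ptprc was at 0 in 7 samples and Myod1 and Myog in all 8, and the 3 muscle markers summed to at most 0.217. The fibroblast sum fell with starvation, and by less in RA, but its markers did not move together. Col1a1 fell from 1678.5 and 1696.6 to 210.8 and 198.1 in WT and from 1555.4 and 1585.3 to 637.4 and 642.4 in RA. Fn1 rose in RA, from 2374.8 and 2365.6 to 3160.9 and 3185.1, and Dcn rose in both lines. The part of these shifts in the results below was not tested, and in bulk RNA fewer cells of a type and less RNA per cell cannot be told apart.

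Starvation moved the 35 tested genes in both directions: Hmox1, Gclc, the ferritins and Srxn1 rose, and most peroxiredoxins, Gsr, Txn1 and Gpx8 fell, in both lines. In WT cells 12 rose and 15 fell at a limma adjusted p-value under 0.05, the threshold for a call, against 78.6% of all 16232 tested genes called (39.3% higher and 39.2% lower). In RA cells 12 rose and 14 fell, against 68.7% of all genes (35% higher and 33.7% lower). The share of these genes called, 77.1% in WT and 74.3% in RA, was therefore close to that of all genes. Their median log2 difference was -0.00 in WT and -0.05 in RA, beside 0.00 and 0.01 over all tested genes. Called in the same direction in both lines were 21 genes: Nfe2l2, Hmox1, Gclc, Gpx4, Srxn1, Gsta4, Abcc1, Fth1 and Ftl1 rose, and Keap1, Gclm, Gsr, Gpx1, Gpx8, Txn1, Prdx1, Prdx2, Prdx3, Prdx4, Prdx5 and Gstp1 fell. Nqo1 was called in opposite directions, and Txnrd2, Sod2, Gstm1 and Blvrb were called in neither line. When each library was left out in turn, 24 of the 27 calls in WT and 23 of the 26 in RA were kept; Gss, Cat and Abcc1 in WT and Nqo1, Gpx4 and Gstm5 in RA each lost theirs without at least 1 library.

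**Figure D1:**
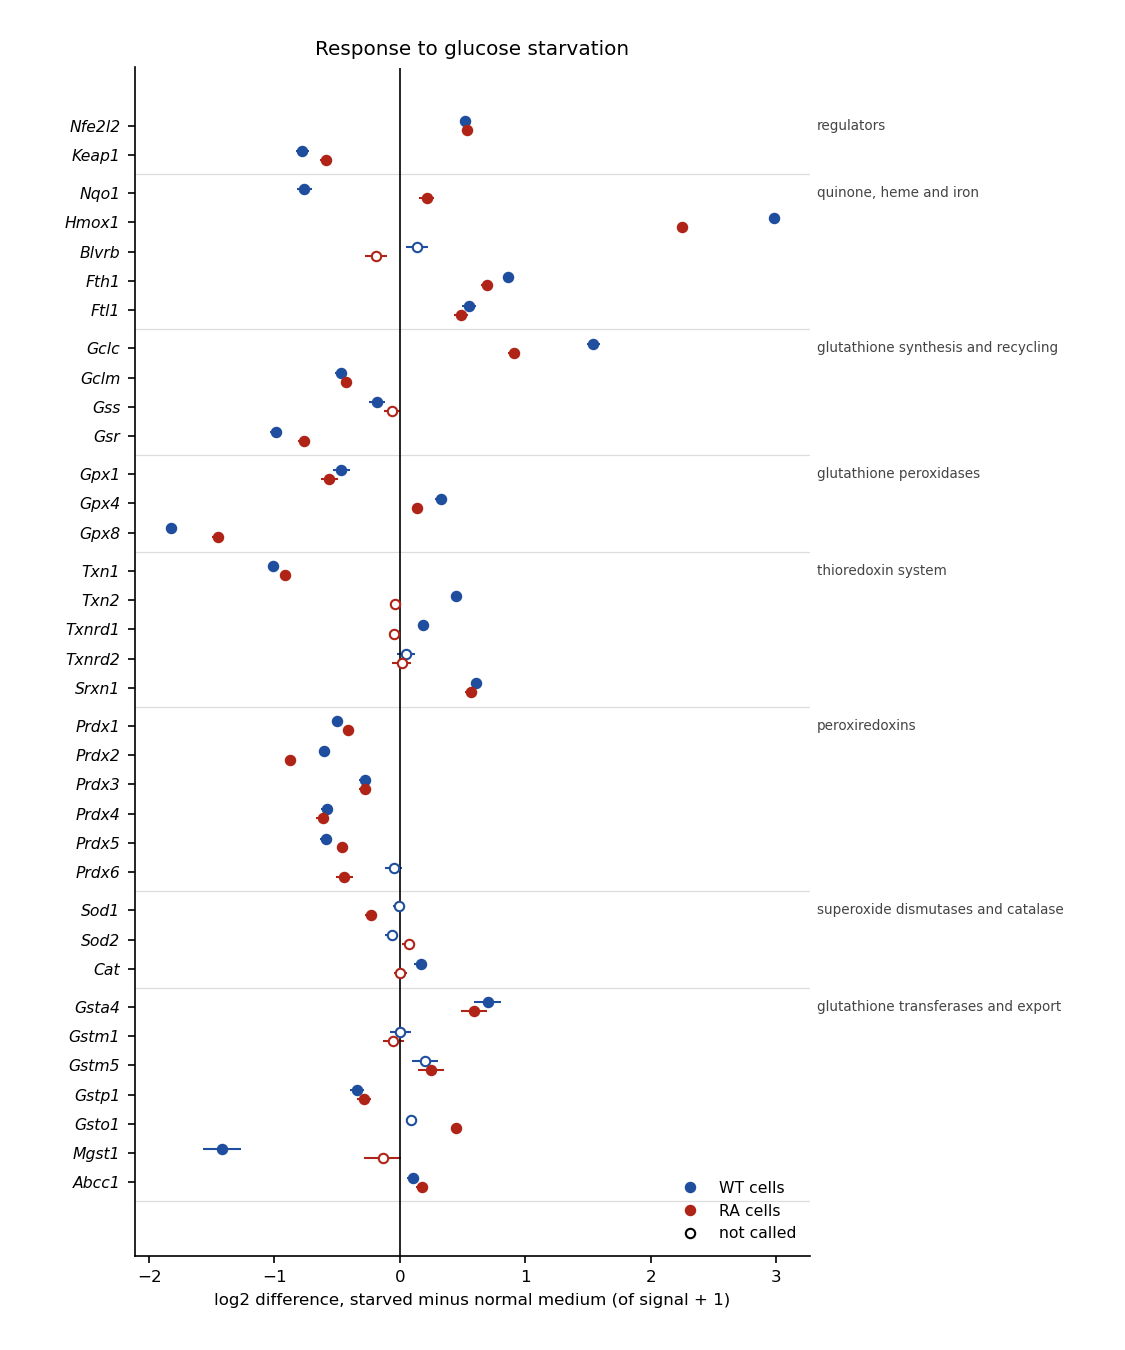
Log2 difference between starved cells and cells in normal medium (x axis, of signal + 1) for the 35 tested genes, grouped by role, in WT (blue) and RA (red) cells. Points are limma estimates with their standard errors from 8 samples, filled where the adjusted p-value is under 0.05; Hmox1 lies farthest to the right at 2.99 and 2.25, Gpx8 farthest to the left at -1.82 and -1.45, and Nqo1 lies on both sides of 0.

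The interaction, the amount by which the starvation response of RA exceeded that of WT, was called for 16 of the 35 genes, 6 higher and 10 lower, against 50.6% of all genes (24.5% higher and 26.1% lower). With signals scaled to total reads the split was 10 higher and 7 lower, and with quantile normalization 9 and 8. Of the 21 genes called in the same direction in both lines, 15 (71.4%) responded less in RA, and the difference was called for 7 of those 15 (46.7%). Over all tested genes, 8845 were called in the same direction in both lines, 6496 of them (73.4%) responded less in RA, and the difference was called for 57.9% of those, so the share of the 21 genes was near that of all genes. Prdx2 responded more in RA with a called difference, and for 13 of the 21 the difference was not called. Leaving out each library in turn kept 11 of the 16 calls, the others being Keap1, Gsr, Gpx4, Fth1 and Blvrb.

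The regulators moved in opposite directions, and alike in both lines. Nfe2l2 stood at 69.0 and 68.0 in WT in normal medium and at 97.7 and 99.5 under starvation, and in RA at 69.1 and 72.0 and then at 102.0 and 103.3. Starved samples were thus all above those in normal medium, with no overlap, by a log2 difference of 0.52 in WT (SE 0.041, limma adjusted p = 4.04e-09) and 0.53 in RA (SE 0.041, limma adjusted p = 4.92e-09), and the responses differed by 0.02 (SE 0.059, limma adjusted p = 0.842). Keap1, the repressor, stood at 60.1 and 61.5 in WT in normal medium and fell to 35.6 and 34.4, and in RA it went from 57.8 and 61.2 to 38.7 and 39.7. The log2 difference was -0.78 in WT (SE 0.050, limma adjusted p = 2.11e-10) and -0.59 in RA (SE 0.050, limma adjusted p = 1.61e-08). The fall in RA was smaller by 0.19 (SE 0.071, limma adjusted p = 0.0339), a call that was lost without any 1 of 6 libraries. Without replicate 1 of RA in normal medium the value was 0.15 (limma adjusted p = 0.114). An antisense gene, Gm16754, covers 10.9% of the exon bases of Keap1, and how strand was handled is not given in the sources used here.

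Hmox1 and Gclc, classical NRF2 targets, rose in both lines and rose less in RA, while Nqo1 fell in WT and rose in RA. Hmox1, the enzyme that breaks heme into biliverdin, iron and carbon monoxide, stood at 64.8 and 65.7 in WT in normal medium and at 525.3 and 523.2 under starvation. In RA it stood at 75.5 and 80.5 and then at 380.1 and 369.4. The 4 groups did not overlap: RA was above WT in normal medium and below it under starvation. Group means thus rose 8.03-fold in WT and 4.81-fold in RA, with log2 differences of 2.99 (SE 0.039, limma adjusted p = 2.08e-19) and 2.25 (SE 0.039, limma adjusted p = 3.46e-17), and the rise in RA was smaller by 0.74 on the log2 scale (interaction -0.74, SE 0.056, limma adjusted p = 1.38e-08).

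Gclc, the catalytic subunit of the ligase that makes the first bond of glutathione, stood at 49.4 and 45.0 in WT in normal medium and at 137.1 and 141.3 under starvation. In RA it stood at 47.4 and 44.6 and rose to 85.5 and 89.1. Both lines overlapped in normal medium and were separate under starvation, with WT the higher. The mean rose 2.95-fold in WT and 1.90-fold in RA, by 1.54 (SE 0.051, limma adjusted p = 2.37e-14) and 0.91 (SE 0.051, limma adjusted p = 6.74e-11) on the log2 scale, with an interaction of -0.63 (SE 0.072, limma adjusted p = 1.80e-06).

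Gclm, the modifier subunit of the same ligase, went the other way. It stood at 223.1 and 221.7 in unstarved WT, 154.7 and 165.4 in starved WT, 218.7 and 231.6 in RA in normal medium and 169.3 and 164.3 in starved RA. The samples of WT and RA overlapped in either medium. The log2 difference under starvation was -0.47 in WT (SE 0.042, limma adjusted p = 1.73e-08) and -0.43 in RA (SE 0.042, limma adjusted p = 9.98e-08), and the interaction of 0.04 was not called (limma adjusted p = 0.577). The 2 subunits of 1 enzyme thus changed in opposite directions in both lines. Gclm holds the ARE core shown above, while Gclc had no promoter window and was not searched for it.

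Nqo1, a quinone reductase, stood at 30.1 and 28.3 in WT in normal medium and fell to 16.5 and 17.1, whereas in RA it stood at 31.5 and 31.0 and went to 35.5 and 37.3. No starved WT sample reached any sample of another group, and both starved RA samples were the highest of the 8. The log2 difference was -0.76 in WT (SE 0.061, limma adjusted p = 4.27e-09) and 0.21 in RA (SE 0.061, limma adjusted p = 0.00520), and the interaction was 0.97 (SE 0.086, limma adjusted p = 9.48e-08). The call in RA was lost without replicate 2 of starved RA (0.18, limma adjusted p = 0.0634) and kept without each other library, while the fall in WT and the interaction held without any 1 library.

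**Figure D2:**
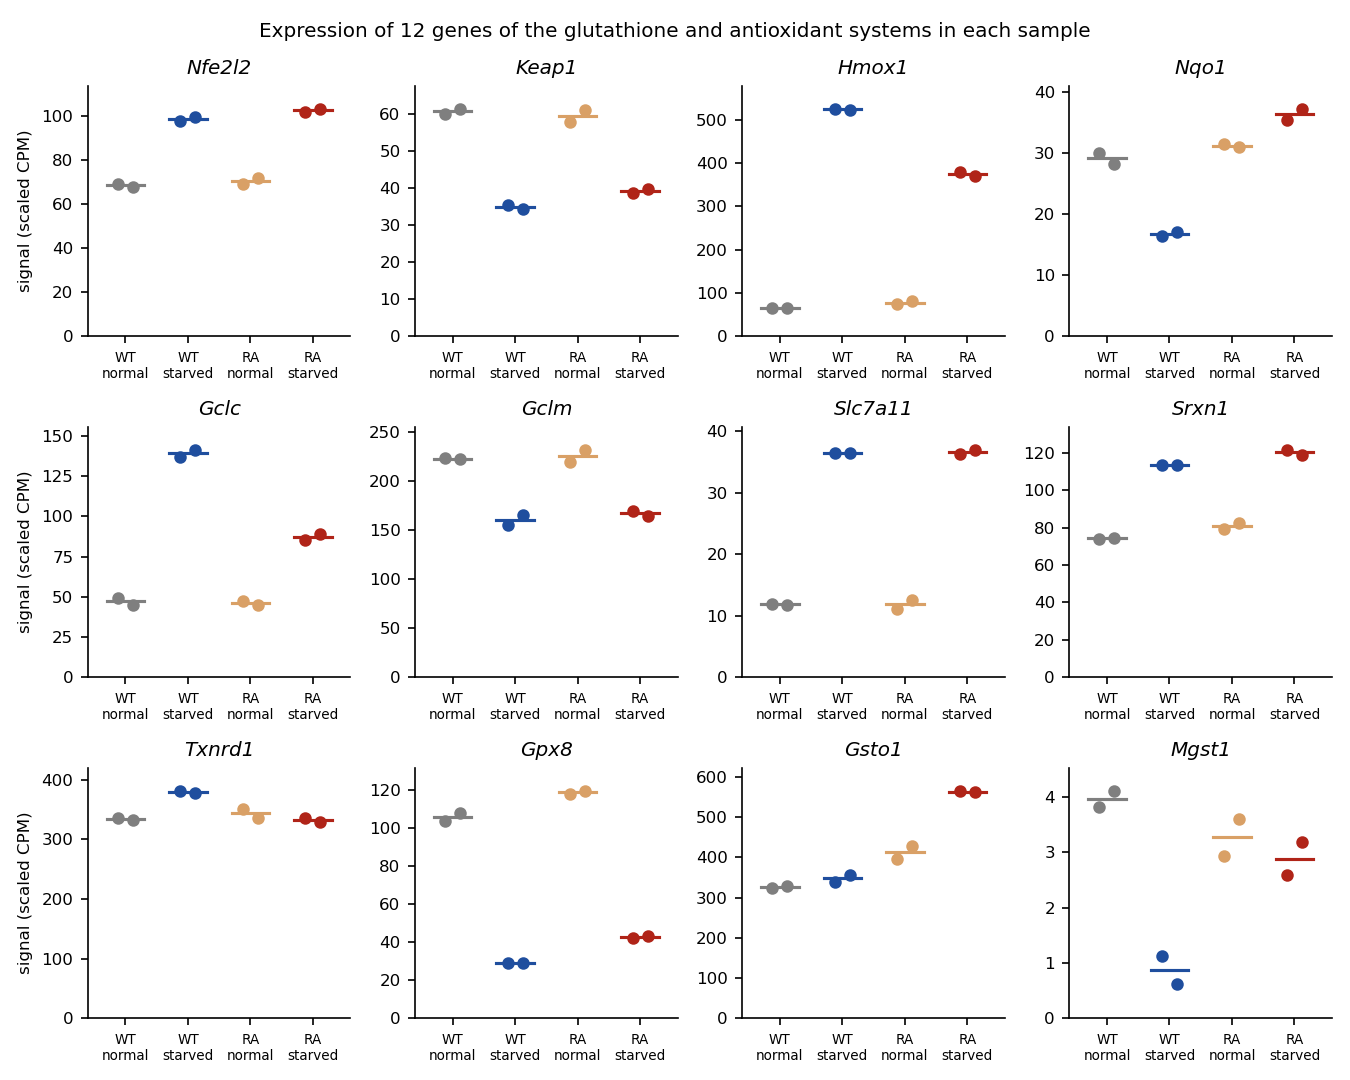
Signal (CPM of the scaled library size, linear axes from 0) of 12 genes in each of the 8 samples, as points, with the mean of each group of 2 as a line. Nqo1 and Mgst1 are lowest in starved WT, Hmox1 and Gclc are highest in starved WT, and Slc7a11 is at about the same level in WT and RA in either medium.

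Srxn1, which repairs overoxidised peroxiredoxins, stood at 73.9 and 74.6 in unstarved WT, 113.7 and 113.5 in starved WT, 79.4 and 82.7 in RA in normal medium and 121.6 and 118.8 in starved RA. Starved samples were above the others without overlap. The log2 difference was 0.61 in WT (SE 0.040, limma adjusted p = 3.31e-10) and 0.56 in RA (SE 0.040, limma adjusted p = 1.71e-09), and the interaction of -0.04 was not called (limma adjusted p = 0.549). Txnrd1, the cytosolic reductase of thioredoxin, stood at 335.3 and 332.8 in WT in normal medium and 381.4 and 378.4 under starvation, and in RA at 350.7 and 336.0 and then 335.4 and 329.0. Its rise in WT was small and the RA samples of both media lay close together. The log2 difference was 0.19 in WT (SE 0.037, limma adjusted p = 0.000195; 0.11 with signals scaled to total reads) and -0.05 in RA (limma adjusted p = 0.262), with an interaction of -0.23 (SE 0.052, limma adjusted p = 0.00132).

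The ferritin chains, which store the iron that heme breakdown sets free, rose with Hmox1. Fth1 stood at 578.2 and 590.4 in WT and 624.8 and 677.3 in RA in normal medium, and at 1035.8 to 1095.5 over the 4 starved samples. The rise was 0.87 in WT (SE 0.045, limma adjusted p = 1.12e-11) and 0.70 in RA (SE 0.045, limma adjusted p = 4.33e-10) on the log2 scale. Its interaction of -0.17 (limma adjusted p = 0.0346) was lost with signals scaled to total reads (-0.10, limma adjusted p = 0.14), with quantile normalization (-0.03) and without any 1 of 6 libraries, among them replicate 2 of RA in normal medium (-0.11, limma adjusted p = 0.123). Ftl1 rose by 0.55 in WT and 0.48 in RA. Read in stretches of 50 bases, 90.6% of its transcript also occurs in other annotated genes, so reads could have been split among copies and its values are uncertain. Blvrb, which reduces biliverdin, was called in neither line (0.14 and -0.19), while its interaction of -0.32 (limma adjusted p = 0.0409) was lost without any of 5 libraries and stood at -0.25 (limma adjusted p = 0.155) without replicate 2 of starved WT.

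The remaining genes of glutathione synthesis and recycling fell or did not pass the test. Gsr regenerates reduced glutathione from its oxidised form. Its mean dropped to 35.4 ± 1.2 from 71.0 ± 1.9 in WT cells, and to 41.0 ± 0.14 from 70.4 ± 2.0 in RA cells (mean ± SD, n = 2). The change was -0.99 (SE 0.048, limma adjusted p = 5.27e-12) and -0.77 (SE 0.048, limma adjusted p = 3.33e-10) on the log2 scale. The smaller fall in RA, by 0.22 (limma adjusted p = 0.0130), was lost without replicate 2 of WT in normal medium (0.19, limma adjusted p = 0.0604) and without replicate 1 of starved WT. Gss, which completes glutathione, stood at 24.5 and 23.9 in unstarved WT, 21.2 and 21.2 in starved WT, 28.1 and 28.3 in RA in normal medium and 28.3 and 25.7 in starved RA. All 4 RA samples were above all 4 WT samples. Its fall in WT of -0.18 (limma adjusted p = 0.0153) was lost with quantile normalization (-0.10, limma adjusted p = 0.144) and without replicate 1 of WT in normal medium (-0.17, limma adjusted p = 0.0782), and RA gave -0.06 (limma adjusted p = 0.4). Genes on the other strand cover between 5.44% and 6.68% each of its exon bases.

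The glutathione peroxidases split. Gpx8, a peroxidase of the endoplasmic reticulum, had the largest fall of the 35 genes in both lines on the log2(signal + 1) scale. It dropped to 29.3 and 29.0 from 103.8 and 107.6 in WT cells, and to 42.3 and 43.1 from 117.7 and 119.5 in RA cells. Its mean was 3.63-fold lower in starved WT and 2.78-fold lower in starved RA (by this ratio Mgst1 fell more in WT, 4.53-fold), with log2 differences of -1.82 (SE 0.044, limma adjusted p = 3.23e-16) and -1.45 (SE 0.044, limma adjusted p = 2.01e-14) and an interaction of 0.37 (SE 0.062, limma adjusted p = 0.000104). Gpx1, the abundant cytosolic peroxidase, fell by 0.47 in WT (limma adjusted p = 6.38e-06) and by 0.56 in RA (limma adjusted p = 1.05e-06) on the log2 scale. Gpx4, which reduces lipid peroxides, rose by 0.33 in WT (SE 0.046, limma adjusted p = 5.16e-06) and by 0.14 in RA (limma adjusted p = 0.0128). The value in RA was 0.06 (limma adjusted p = 0.217) without replicate 1 of RA in normal medium. Its interaction of -0.19 (limma adjusted p = 0.0239) was lost with signals scaled to total reads (-0.12, limma adjusted p = 0.114) and without any of 4 libraries (-0.11, limma adjusted p = 0.114 without replicate 2 of RA in normal medium). A pseudogene, Gpx4-ps2, shares 61.7% of the 50-base stretches of Gpx4. Gpx3, the secreted peroxidase, lay between 0.109 and 0.461 in the 8 samples (5 to 22 reads) and was not tested.

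The cytosolic and mitochondrial thioredoxins went apart. Txn1, the cytosolic thioredoxin, stood at 440.3 and 456.1 in WT in normal medium and at 216.6 and 226.6 under starvation, and in RA at 487.6 and 494.0 and then at 260.6 and 257.5. RA was above WT in both media without overlap. The log2 difference was -1.01 in WT (SE 0.038, limma adjusted p = 1.13e-13) and -0.92 in RA (SE 0.038, limma adjusted p = 1.09e-12), and the interaction of 0.09 was not called (limma adjusted p = 0.156). Txn2, the mitochondrial thioredoxin, stood at 157.2 and 166.0 in unstarved WT, 221.6 and 218.9 in starved WT, 187.9 and 187.4 in RA in normal medium and 186.5 and 178.2 in starved RA. It rose by 0.45 in WT (SE 0.040, limma adjusted p = 1.65e-08), gave -0.04 in RA (limma adjusted p = 0.369) and differed between the responses by -0.49 (SE 0.056, limma adjusted p = 2.01e-06). Txnrd2, the mitochondrial reductase, gave 0.05 and 0.01 and was not called.

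Peroxiredoxins, the thiol peroxidases that thioredoxin reduces, fell: 5 of 6 were called lower in WT and 6 of 6 in RA, with no member called higher in either. Of all genes 39.2% were called lower in WT and 33.7% in RA. In WT the log2 difference was -0.50 for Prdx1, -0.60 for Prdx2, -0.28 for Prdx3, -0.58 for Prdx4 and -0.59 for Prdx5, with limma adjusted p-values of at most 3.96e-05. The values in RA for the same genes were -0.42, -0.88, -0.28, -0.62 and -0.46, with limma adjusted p-values of at most 5.30e-05. Prdx2 thus fell more in RA, by 0.28 (interaction -0.28, SE 0.057, limma adjusted p = 0.000718), from 240.1 ± 7.7 to 130.1 ± 3.8 there and from 216.1 ± 7.0 to 142.1 ± 2.0 in WT (mean ± SD, n = 2). Prdx6, which unlike the others draws on glutathione, stood at 145.6 and 153.4 in WT cells before and at 141.1 and 147.9 after starvation, and went from 136.3 and 165.6 to 105.5 and 115.0 in RA. It gave -0.05 in WT (limma adjusted p = 0.513) and fell by 0.44 in RA (SE 0.067, limma adjusted p = 1.65e-05), with an interaction of -0.40 (limma adjusted p = 0.00235) that was -0.26 without replicate 2 of RA in normal medium and passed in neither the fit without a filter (limma adjusted p = 0.0509) nor that without the variance trend (limma adjusted p = 0.0517). Other annotated genes share 23.8% of the 50-base stretches of Prdx2 (the pseudogene Tdpx-ps1 alone 8.96%) and 10.9% of those of Prdx1. Junb and Rnaseh2a lie antisense over 5.67% and 5.80% of the exon bases of Prdx2, and Trmt112 over 19.1% of those of Prdx5.

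Superoxide dismutases and catalase moved little. Sod1, the cytosolic dismutase, lay between 245.2 and 247.6 in all 4 WT samples, and in RA stood at 256.5 and 292.3 in normal medium and at 235.1 and 231.7 under starvation. The log2 difference was -0.00 in WT (limma adjusted p = 0.938) and -0.23 in RA (SE 0.048, limma adjusted p = 0.000437), which became -0.14 without replicate 2 of RA in normal medium, and the interaction of -0.23 (limma adjusted p = 0.0110) became -0.13 without the same library and was not called without the variance trend (limma adjusted p = 0.092) or the filter. Sod2, the mitochondrial dismutase, gave -0.06 and 0.07 and was called in neither line. Cat, which breaks down hydrogen peroxide in peroxisomes, rose by 0.17 in WT (limma adjusted p = 0.00706) and gave 0.00 in RA (limma adjusted p = 0.975). Its rise was lost without replicate 1 of WT in normal medium (0.12, limma adjusted p = 0.0989) and with signals scaled to total reads (0.10, limma adjusted p = 0.0913).

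The 6 glutathione transferases, which couple glutathione to other compounds, and the exporter Abcc1 showed no common direction, with 2 of these 7 genes higher and 2 lower in WT and 4 higher and 1 lower in RA. Of all genes 39.3% were higher and 39.2% lower in WT, and 35% and 33.7% in RA. Mgst1, a membrane-bound transferase expressed at a low level, stood at 3.83 and 4.11 in WT in normal medium and at 1.13 and 0.621 under starvation (54 and 34 reads), and in RA at 2.94 and 3.60 and then at 2.59 and 3.18. Starved WT was below the other groups, which overlapped one another in part. The mean was 4.53-fold lower in starved WT than in WT in normal medium, and 1.14-fold lower in starved RA than in RA in normal medium. On the scale of log2(signal + 1), which understates changes at this level, the difference was -1.42 in WT (SE 0.15, limma adjusted p = 1.38e-07) and -0.14 in RA (limma adjusted p = 0.422), with an interaction of 1.28 (SE 0.21, limma adjusted p = 8.52e-05). On the recovered reads edgeR gave -2.23 for WT and 2.04 for the interaction.

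Gsto1, an omega-class transferase with glutathione-dependent reductase activity, stood at 323.8 and 328.4 in unstarved WT, 339.9 and 355.7 in starved WT, 396.2 and 429.3 in RA in normal medium and 565.6 and 561.8 in starved RA. The groups were in that order without overlap. It gave 0.09 in WT (SE 0.042, limma adjusted p = 0.0535) and rose by 0.45 in RA (SE 0.042, limma adjusted p = 5.20e-08), with an interaction of 0.36 (SE 0.059, limma adjusted p = 9.50e-05). Gsta4, which conjugates the lipid aldehyde hydroxynonenal, rose by 0.70 in WT (limma adjusted p = 1.32e-05) and by 0.59 in RA (limma adjusted p = 0.000109). Gstm5 was called in RA alone (0.25, limma adjusted p = 0.0387), with 0.20 in WT, an interaction of 0.05 that was not called, and 0.14 (limma adjusted p = 0.316) in RA without replicate 2 of RA in normal medium. An antisense gene covers 13.9% of the exon bases of Gstm5. Gstm1 gave 0.00 and -0.05 and was not called, and copies share 23.2% of its 50-base stretches. Gstp1 fell by 0.34 in WT and by 0.28 in RA (limma adjusted p of 4.06e-05 and 0.000333), and Gstp2 shares 62.3% of its stretches, so its reads cannot be assigned with certainty. Abcc1, the pump that exports glutathione conjugates, rose by 0.17 in RA (limma adjusted p = 0.00236). Its 0.10 in WT (limma adjusted p = 0.0483) was 0.03 (limma adjusted p = 0.61) with signals scaled to total reads and 0.04 (limma adjusted p = 0.442) without replicate 1 of starved WT.

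In normal medium 9 of the 35 genes were higher in RA than in WT and 0 were lower, against 9.63% of all genes called (6.68% higher and 2.95% lower). The median log2 difference of the 35 genes was 0.10, beside 0.01 over all tested genes. The differences were small: the largest were in Gsto1 (0.34, SE 0.042, limma adjusted p = 4.18e-05), Hmox1 (0.25, SE 0.039, limma adjusted p = 0.000477), Txn2 (0.22, SE 0.040, limma adjusted p = 0.00211) and Gss (0.21, SE 0.064, limma adjusted p = 0.0465). The others, Gpx8, Fth1, Prdx2, Prdx5 and Txn1, lay between 0.13 and 0.16. Hmox1 and Gsto1 alone kept their calls whichever library was left out. Fewer of the 35 genes were called without either replicate of WT or replicate 2 of RA in normal medium, and more without replicate 1 of RA. Over all tested genes the number higher in RA also fell without replicate 1 of WT or replicate 2 of RA in normal medium. It rose without replicate 1 of RA in normal medium. Without either starved RA library both numbers fell. Txn2 stood at 0.18 (limma adjusted p = 0.0669) and Gpx8, Fth1, Prdx2, Prdx5 and Txn1 at 0.11 to 0.14 without replicate 1 of WT in normal medium. Fth1 stood at 0.10 (limma adjusted p = 0.24) without replicate 2 of RA in normal medium and at 0.0059 (limma adjusted p = 0.936) with quantile normalization, and Gss lost its call without any 1 of the 8 libraries. With signals scaled to total reads, or with quantile normalization, 3 of these genes were higher. Over all genes these scalings gave 680 higher and 1001 lower, and 800 and 721, against 1084 and 479 with the deposited scaling. At an unadjusted limma p under 0.05 the number lower in RA was 1, Abcc1, and edgeR and DESeq2 also called 0 lower after adjustment. Nfe2l2 (0.04), Keap1 (-0.03), Nqo1 (0.09), Gclc (-0.03), Gclm (0.02), Txnrd1 (0.04) and Srxn1 (0.12) were not called.

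Under starvation 20 of the 35 genes differed between RA and WT, 14 higher and 6 lower in RA, against 62.9% of all genes (30.8% higher and 32.1% lower). The median log2 difference was 0.02, beside -0.01 over all tested genes. The largest were Nqo1 (1.07, SE 0.061, limma adjusted p = 1.45e-10), Mgst1 (1.06, SE 0.15, limma adjusted p = 9.73e-06; 1.75 by edgeR on the recovered reads) and Gsto1 (0.70, SE 0.042, limma adjusted p = 2.95e-10), all higher in RA, and Gclc (-0.67, SE 0.051, limma adjusted p = 6.38e-09), lower in RA. The ratio of the RA mean to the WT mean was 2.16 for Nqo1 and 0.627 for Gclc. Gpx8 (0.54), Gss (0.33), Prdx5 (0.27), Txn1 (0.22), Prdx1 (0.21) and Gsr (0.21) were also higher, and Hmox1 (-0.48), Prdx6 (-0.39), Txn2 (-0.27) and Txnrd1 (-0.19) lower, with each of these 14 calls kept whichever library was left out. The remaining 6 calls were each lost without at least 1 library: Gstm5 (0.36; 0.30 without replicate 1 of starved WT), Gstp1 (0.16; 0.08 without the same library), Keap1 (0.16; 0.14 without replicate 2 of starved RA), Sod2 (0.15; 0.15 without replicate 1 of starved RA), Prdx3 (0.12; 0.09 without the same) and Prdx2 (-0.13; -0.10 without the same). Hmox1, Txn2 and Prdx2 were called higher in RA in normal medium and lower in RA under starvation. Starved samples of WT and RA overlapped for Gclm (0.06), Fth1 (-0.01) and Ftl1 (0.02), which were not called.

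**Figure D3:**
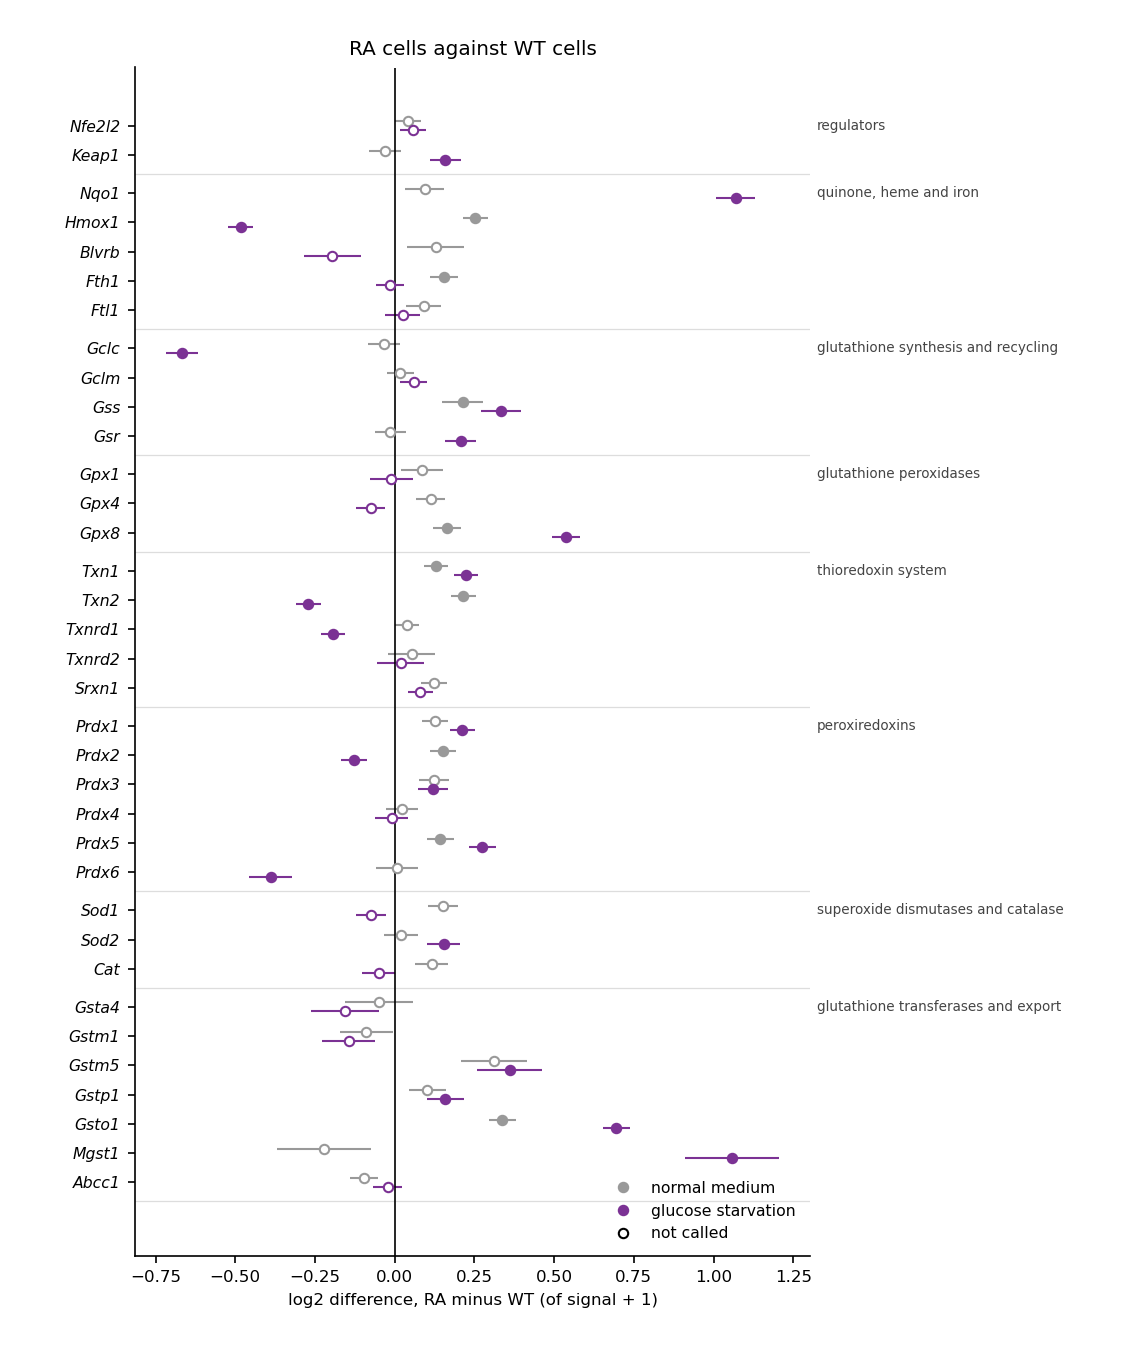
Log2 difference between RA and WT cells (x axis, of signal + 1) for the 35 tested genes in normal medium (grey) and under glucose starvation (purple). Points are limma estimates with their standard errors from 8 samples, filled where the adjusted p-value is under 0.05; the values in normal medium lie between -0.22 and 0.34 and those under starvation between -0.67 and 1.07.

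A further 85 genes of the same systems were listed by role, and 77 passed the filter. Of these, 26 rose and 40 fell in WT, where 39.3% of all genes rose and 39.2% fell, and 23 rose and 36 fell in RA, where the shares were 35% and 33.7%. In normal medium 12 were higher and 2 lower in RA (6.68% and 2.95% of all genes), and under starvation 38 were higher and 14 lower (30.8% and 32.1%). The interaction was called higher for 30 and lower for 17 (24.5% and 26.1%). Their median log2 difference was -0.19 in WT and -0.12 in RA, beside 0.0049 and 0.013 over all tested genes. Both chains of the cystine carrier rose in both lines. Slc7a11, the light chain and a classical NRF2 target, stood at 12 and 11.7 in unstarved WT, 36.5 and 36.5 in starved WT, 11.1 and 12.6 in RA in normal medium and 36.4 and 37.0 in starved RA. WT and RA were alike in each medium, with a rise of 1.55 in either line (SE 0.071, limma adjusted p of 2.09e-12 and 4.65e-12) and an interaction of 0.01 (SE 0.10, limma adjusted p = 0.963). Slc3a2, its heavy chain, rose by 2.10 in WT and by 1.54 in RA, where it went from 204.1 and 212.6 to 610.9 and 605.3, with an interaction of -0.56 (limma adjusted p = 1.7e-07). Chac1, which degrades glutathione, had the largest rise of the 77 genes, to 229.0 and 230.2 from 16.9 and 17.5 in WT cells (log2 3.66). In RA cells it reached 249.5 and 245.8 from 24.2 and 25.8 (log2 3.26).

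Among the other listed genes, Sqstm1, the autophagy receptor that also binds KEAP1, rose by 2.0 in WT and 2.21 in RA. Txnip, the inhibitor of thioredoxin, which an antisense gene overlaps, had log2 differences of -3.60 in WT and -3.63 in RA. It dropped to 1.26 and 0.987 from 24.9 and 24.5 in WT cells, and to 2.0 and 2.35 from 40.4 and 36.3 in RA cells. Glrx, the glutathione-dependent glutaredoxin, dropped to 3.94 and 3.36 from 31.0 and 30.7 in WT cells, and to 13.0 and 11.9 from 35.7 and 33.4 in RA cells. Its log2 differences were -2.78 and -1.41, with an interaction of 1.37, and starved RA was above starved WT by 1.53. Nqo2, a quinone reductase related to Nqo1, fell by 2.03 in WT and by 1.01 in RA, with an interaction of 1.03 (limma adjusted p = 1.23e-06), and starved RA was above starved WT by 1.09. Idh1, a source of NADPH, fell by 1.42 in WT, from 35.2 and 38.2 to 13.8 and 12.4, and by 1.33 in RA. Xdh, which makes superoxide and hydrogen peroxide as it oxidises purines, stood at 20 and 20.5 in starved RA, between 2.09 and 4.65 in the 4 WT samples and at 3.54 and 3.37 in RA in normal medium. Its log2 rise was 2.26 in RA, its interaction 1.73 and the difference between starved RA and starved WT 2.13, the highest of the 77 genes in both of the latter comparisons. Ggct, which acts on breakdown products of glutathione, was higher in starved RA than in starved WT by 1.35, and Gstt1 had an interaction of 1.38. Each of these called values had a limma adjusted p-value under 0.05.

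Of 9 listed regulators 5 were lower in starved RA than in starved WT and 1, Nfe2l1, was higher, and the interaction was called lower for 6. Of all genes 32.1% were lower and 30.8% higher in starved RA, and 26.1% had an interaction called lower. Those lower were Bach1, a repressor of ARE genes, the small MAF genes Mafg and Maff, the ligase gene Cul3 and the kinase gene Gsk3b, so partners and opponents of NRF2 were among them. Mafg stood at 194.6 and 191.4 in starved WT and at 131.5 and 131.4 in starved RA, a log2 difference of -0.55 (SE 0.045, limma adjusted p = 1.39e-08). Gsk3b, a kinase that marks NRF2 for destruction, was lower by 0.50 (limma adjusted p = 2.01e-07). Maff had an interaction of -0.70 (SE 0.067, limma adjusted p = 2.44e-07). Outside the regulators, Tfrc, the transferrin receptor that brings iron into the cell, stood at 386.0 and 363.1 in starved WT and at 209.1 and 210.0 in starved RA. It was lower by 0.83, with an interaction of -0.92 (SE 0.065, limma adjusted p = 5.54e-09). Slc40a1, the iron exporter, had an interaction of -0.62 (SE 0.20, limma adjusted p = 0.0170) at a level near the filter. It stood at 0.35 and 0.60 in unstarved WT, 1.59 and 1.68 in starved WT, 0.64 and 0.70 in RA in normal medium and 0.78 and 1.1 in starved RA. Without its values in starved WT it would not have passed the filter, so the filter favoured this difference.

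**Figure D4:**
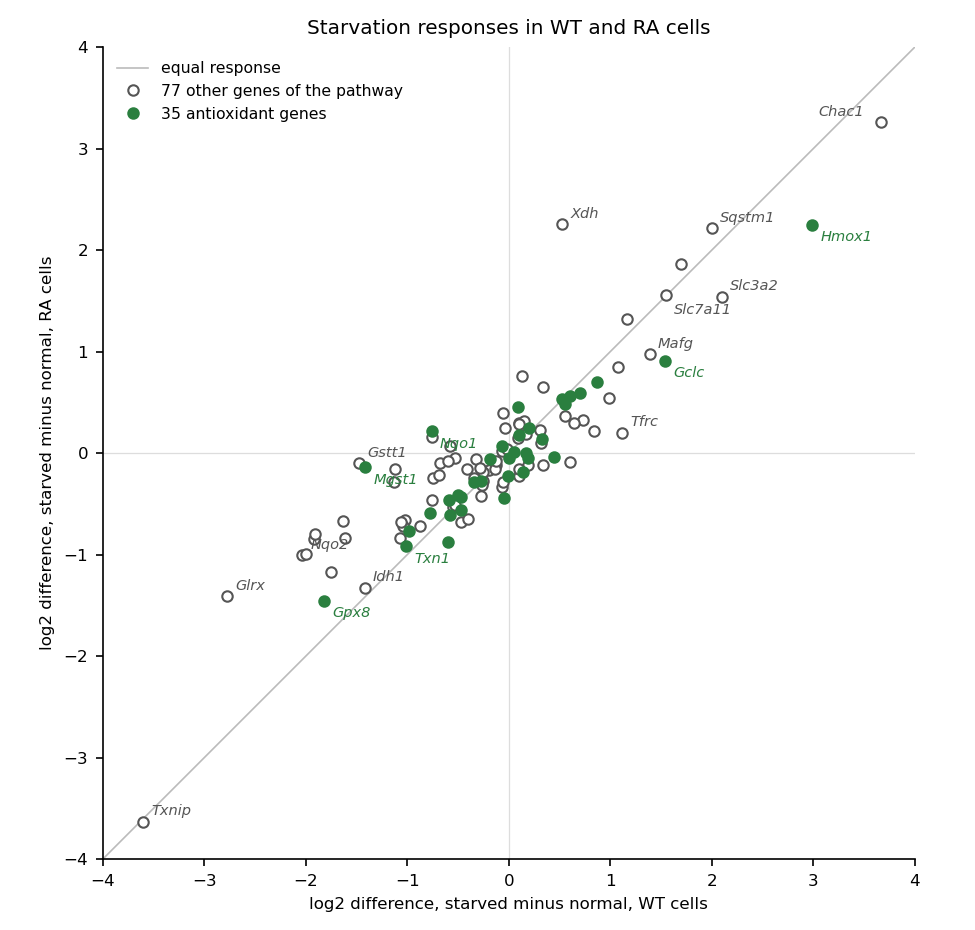
Log2 difference between starved cells and cells in normal medium in WT (x axis) and RA (y axis) cells for the 35 antioxidant genes (green) and 77 other genes of the same systems (open circles). On the grey line both responses are equal; Slc7a11 (1.55 and 1.55) and Txnip (-3.60 and -3.63) lie near it, and Hmox1, Gclc, Glrx and Xdh lie away from it.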

How the data were processed

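The labels gave the genotype and medium of 8 samples. PolyA libraries (TruSeq RNA v2, paired ends, Illumina HiSeq) were mapped by the authors with TopHat2 2.0.9 to mm9; bedtools and edgeR are named in their processing notes, while the counter, annotation and strand handling are not given in the sources used here. The authors deposited 1 table of signal, in which each value is a read count divided by a library size scaled per sample (CPM of that size). Its columns, named minus and plus, were read as normal medium and starvation, as the study marks them. In every sample 100% of nonzero values were whole reads (tolerance 0.1 read), 43205841 to 56363034 in all, and 3 reads correspond to 0.0548 to 0.069. Intervals from depth would cover counting error only. Between 78.2% and 80.5% of counts from 1 to 9 were even. Replicates of a group differed beyond the counting noise of independent reads (chi-square of 3.48 to 16.7 per gene). Whether both ends of a pair were counted, in which case reads are not independent, was not tested.

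Genes with a signal of at least 1 in at least 2 samples (16232, including 26 with date-like names) were tested on log2(signal + 1), a scale that understates changes of low genes, with limma 3.58.1 in R 4.3.3: a mean per group, eBayes with a variance trend, 2-sided p-values, Benjamini-Hochberg adjustment over all tested genes, a call at an adjusted p under 0.05. The 5 contrasts were RA minus WT in each medium, starved minus normal in each line, and the interaction. The script was tested on simulated data. Alternatives changed the pseudocount (0.1, 0.5), filter, scaling, trend, samples, thresholds and replicates, or used edgeR 4.0.16 or DESeq2 1.42.0 on the recovered reads; edgeR called 1555 genes for RA against WT in normal medium, 10194 under starvation, 12705 and 11114 for the WT and RA responses and 8096 for the interaction, where limma called 1563, 10211, 12756, 11157 and 8207.

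The 36 genes, the other lists, the markers and the motifs were chosen with earlier results of these data known. Values in every sample are given for Nfe2l2, Keap1, Nqo1, Hmox1, Gclc, Gclm, Txnrd1, Srxn1 and Slc7a11 and for the 4 called genes with the largest absolute difference in each contrast, with others added after their values were seen; of the other lists, the 3 called genes at either end of both responses, of the starved genotype contrast and of the interaction are named. Promoters came from RefSeq (GRCm38.p6), and shared sequence and overlaps from the GENCODE M21 annotation of GRCm38, a later build than that of the reads.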

Additional observations from a re-analysis of the deposited data

Results flagged for a closer look

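The starvation response differed between RA and WT cells for 16 of the 35 genes (45.7%), against 50.6% of all tested genes. These calls were made by the interaction term of the limma fit with adjustment over all tested genes. The response in RA less that in WT, on the log2 scale, was below 0 for Hmox1 (-0.74), Gclc (-0.63), Txn2 (-0.49), Prdx6 (-0.40), Blvrb (-0.32), Prdx2 (-0.28), Txnrd1 (-0.23), Sod1 (-0.23), Gpx4 (-0.19) and Fth1 (-0.17). It was above 0 for Keap1 (0.19), Gsr (0.22), Gsto1 (0.36), Gpx8 (0.37), Nqo1 (0.97) and Mgst1 (1.28).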

How the results depend on the processing

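In 3460 comparisons of a gene's value with its value under an alternative, 3248 kept their side of the threshold. In the others, 154 called values were lost and 58 were gained, and 0 called values reversed. The 3248 include 98 values, called in neither fit, that changed sign, none above 0.13 in size. Of the counts, the 9 genes higher in RA in normal medium became 3 with no filter, 3 with total-read scaling, 3 with quantile normalization, 2 without the variance trend, and 0 with a log2 difference of at least 0.5 or an adjusted p under 1e-05. Calls were also lost over all genes: the 1084 higher became 492 with no filter and 433 without the trend. Under starvation, the 14 higher became 4 and 4 and the 6 lower became 1 and 2 under those stricter thresholds. With a difference of at least 0.5 the 12 rises in WT became 7, and in RA the 12 rises became 6 and the 14 falls 7; with p under 1e-05 the rises in RA were 7. For the interaction, the 6 higher became 10 with total-read scaling, 2 and 1 under the stricter thresholds, and the 10 lower became 6 with no filter, 6 without the trend, 2 and 3. Over all genes the 3972 higher became 4648 with total-read scaling, and the 4235 lower became 3810 with no filter and 3702 without the trend. The causes were not tested. Leaving out each library gave 2 to 13 higher in RA in normal medium, 10 to 14 higher and 5 to 7 lower under starvation, 10 to 13 rises and 14 to 15 falls in WT, 10 to 12 and 14 to 15 in RA, and 4 to 6 higher and 7 to 13 lower in the interaction. Over all genes the number higher in RA in normal medium also moved with the library left out. Same-numbered replicates correlated by -0.00764 to 0.157 in their deviations, or by -0.0272 to 0.303 over genes with a mean above 10. By neither was every pair over 0.1, so pairing was not taken as shown. With the number as a block 13 genes were higher in RA in normal medium, and over all genes the 1084 higher became 1371. The interaction then gave 6 higher and 11 lower, and over all genes 4133 and 4445. No scaling moved the median of all genes by over 0.1. Genes below about 1 signal, such as Gpx3, could not be compared at this depth.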
